A study of Mus musculus with 12 samples.

Results

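Lumbar spinal cord from 3 mice that carried a model of amyotrophic lateral sclerosis (ALS) and received manganese-doped carbon dots (group C: mice C79, C84 and C85) was compared with that of 3 healthy wild-type mice (group H: H1, H2 and H4). These are 6 of the 12 RNA sequencing libraries of the series, taken by their group labels. Of the deposited genes, 18118 passed a filter on reads and were tested, and 15788 were set aside. Group C mice carried the disease model and the treatment together, so C against H alone cannot tell apart what belongs to either. The remaining 6 libraries came from model mice given phosphate-buffered saline (group P: P66, P67 and P74) and from a group E (E75, E77 and E90) that was read as edaravone-treated by elimination, since the series text describes that drug under another letter. Carbon dots are nanometre-sized carbon particles, and the series title ascribes superoxide dismutase-like catalysis to these. The strain and transgene of the model, the age and sex of the mice, and the dose, route and duration of treatment were not given in the sources used here. Each number is 1 mouse, so replicates are separate animals.

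ALS is a disease in which the motor neurons of the cord and brain degenerate. In its mouse models, microglia, the resident macrophages of the cord, leave their surveying state, turn on lysosomal, lipid-handling and antigen-presenting genes, and take up debris. Astrocytes become reactive, with more intermediate filaments and secreted acute-phase proteins. Superoxide dismutases convert superoxide to hydrogen peroxide, which catalase, glutathione peroxidases and peroxiredoxins then remove, and manganese is the metal cofactor of the mitochondrial dismutase Sod2.

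Expression is given in FPKM as the authors deposited it, that is, the reads of a gene divided by its exon length in kilobases and scaled to the reads of its library. The reads recovered from those values summed to 16.8 to 19.8 M per library. For a 1 kb gene, a single read was worth 0.0542 to 0.0643 FPKM. Differences between groups are on the log2(FPKM + 1) scale, written as C minus H ± standard error with n = 3 mice per group, and this scale understates changes of low genes. A gene is called where limma's Benjamini-Hochberg adjusted p is under 0.05. Values of single libraries follow the order H1, H2, H4 and C79, C84, C85. Coordinates are those of GRCm38.

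The libraries had the profile of spinal cord, with Mbp of myelin at 1784 to 2539 FPKM and the neuronal splicing factor Rbfox3 at 17.4 to 23.1 over the 6 libraries. On the first principal component, which held 47.0% of the variance, H lay at -46.3, -40.4 and -30.3 and C at 4.90, 14.4 and 13. C79, C85 and H4 gave 41.9 to 44.3% of their FPKM to the shortest genes (the first of 4 equal groups by exon length), against 36.2 to 39.4% in the remaining libraries. C79 and C85 were more alike (r = 0.993 across genes) than either was with C84 (0.987). H libraries were less alike, with r between 0.966 and 0.986.

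Of 18118 genes tested, 1505 were called between C and H, which is 8.31%. In C, 1313 genes (7.25%) were higher and 192 (1.06%) were lower, and 391 (2.16% of those tested) were at least 2-fold higher against 11 (0.0607%) at least 2-fold lower. The median difference over all genes tested was 0.07. At an unadjusted p under 0.05 there were 4675 genes, where 906 would be reached by chance. The share of called genes that were higher was 87.2%, and it was 67.5% (936 higher, 450 lower) when libraries were scaled by the median ratio of their genes. Leaving out H2 gave 567 calls, C85 599, C84 754 and H1 891, and without H4 there were 572 lower and 1343 higher genes.

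**Figure D1:**
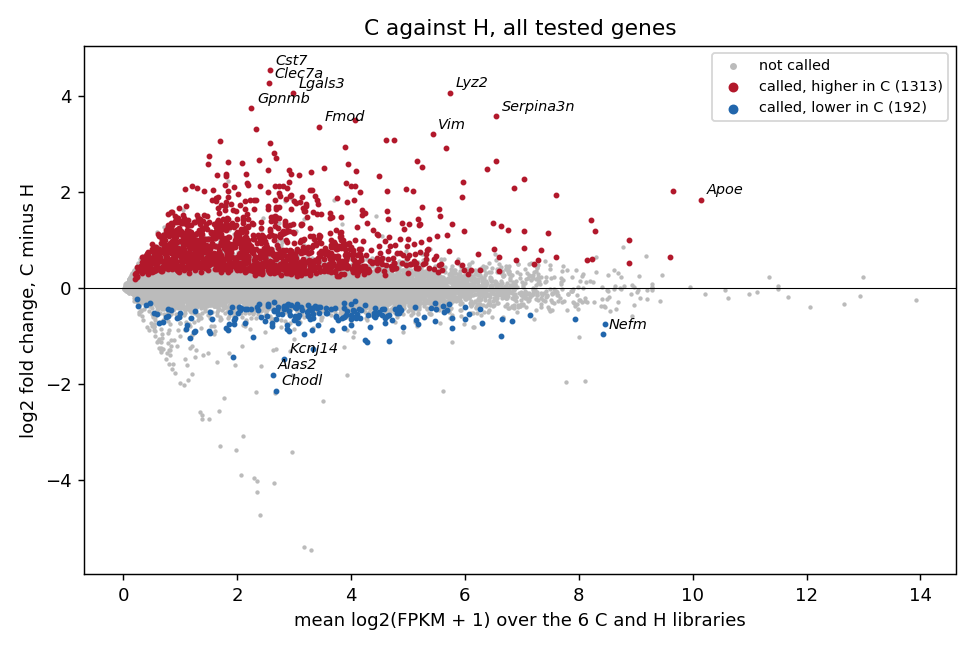
Each point is a tested gene, with the mean log2(FPKM + 1) of the 6 C and H libraries on the horizontal axis and the log2 difference C minus H on the vertical axis. Red points are the 1313 genes called higher in C and blue points the 192 called lower. Apart from Chodl, the points under -2, among them muscle genes such as Acta1 at -5.47, were not called.

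Apart from Clec7a, described with the microglial lists, the 4 largest rises among called genes were those of Cst7, Lyz2, Lgals3 and Gpnmb, all known from phagocytes. Cst7, an inhibitor of lysosomal cysteine proteases (ENSMUSG00000068129, chr2:150570415-150578944), stood at 0.0604, 0.0553 and 0.704 FPKM in H and at 24.6, 27.2 and 32.7 in C. Every C library was far above every H library, a difference of 4.55 ± 0.34 (adjusted p = 0.000102). Lyz2, the lysozyme of macrophages (ENSMUSG00000069516, chr10:117277331-117282321), measured 15.5, 9.41 and 11.9 in H and 158, 249 and 261 in C (4.07 ± 0.38, adjusted p = 0.000345). Lgals3, a galectin of phagocytes that binds damaged lysosomes, went from 1.25, 0.763 and 0.809 to 26, 30.8 and 38.1 (4.06 ± 0.33, adjusted p = 0.000151). Neither gene had a C library within the range of H. Gpnmb, a glycoprotein of lipid-laden phagocytes, had the widest spread of these within C, with 9.31 in C79 against 24.3 in C84 and 19.3 in C85, and 0.366, 0.335 and 0.204 in H (3.75 ± 0.51, adjusted p = 0.00239). C79 was the lowest C library for each of the 4 genes. Lyz2 has a near-identical neighbour, and the division of reads between such copies is uncertain.

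The remaining genes of largest rise were called by the same rule and held their call under every alternative tried. They were the lysosomal membrane protein Cd68 (3.51 ± 0.34), the pore-forming protein of phagocytes Mpeg1 (3.09 ± 0.29), the signalling adaptor Tyrobp (3.09 ± 0.41), the integrin subunit Itgax (3.06 ± 0.30) and the chemokine Ccl3 (3.32 ± 0.26). Itgax was low in H, at 0.199, 0.0454 and 0.120 FPKM, and reached 6.25, 10.6 and 8.60 in C. Serpina3n, Vim and Fmod, which belong to astrocytes and meninges, are described with those cells. The plot of the largest changes by library shows that no C value lay within the H range for any of the genes drawn, which was part of the rule that chose them.

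**Figure D2:**
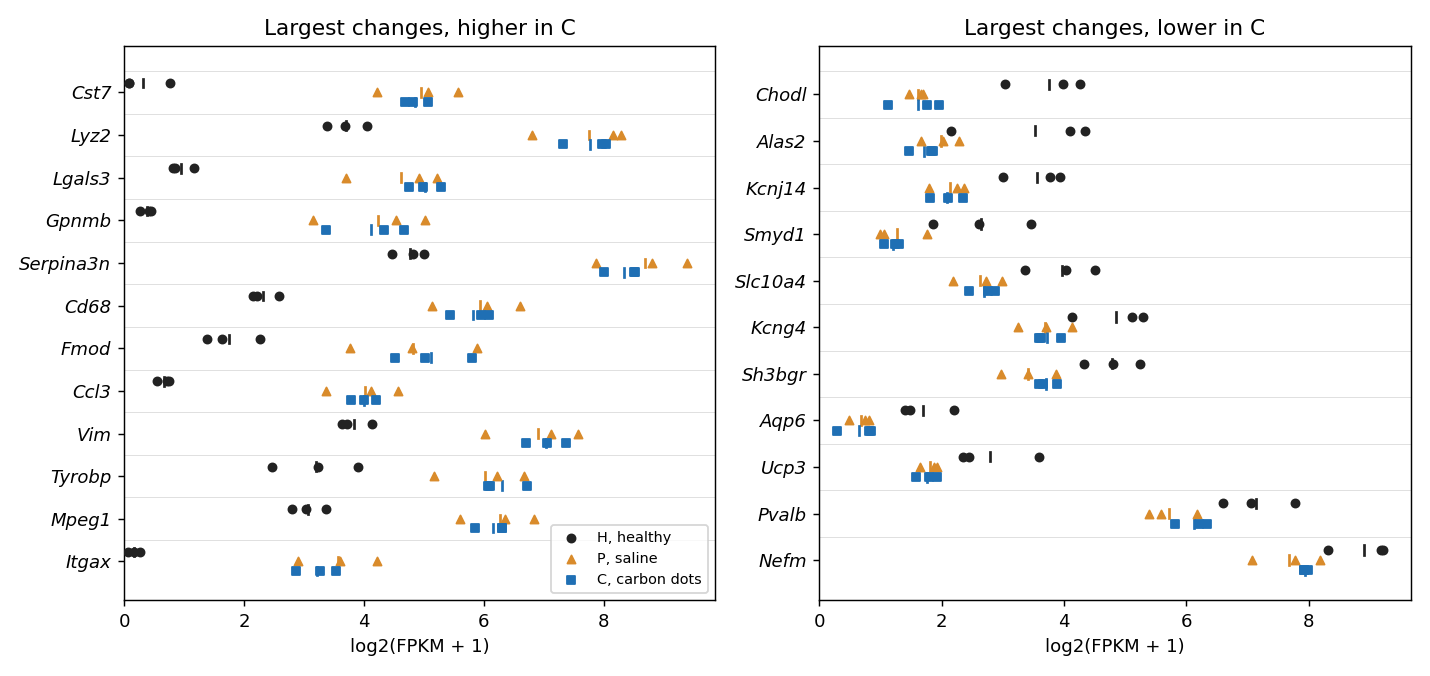
Points are single libraries on the log2(FPKM + 1) scale and short vertical lines are group means, for the 12 largest rises (left) and 11 of the largest falls (right) in C against H, with the saline group P beside them. C and P points overlap along the rows, as for Cst7 with a mean of 28.2 FPKM in C and 32.2 in P.

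Of 30 disease-associated microglia genes, the set known to be turned on around degenerating neurons, 23 were called higher and 0 lower, and all 30 had a positive difference (median 1.99). Clec7a, a receptor for fungal glucans which the annotation calls a polymorphic pseudogene, stood at 0.248, 0.331 and 0.460 FPKM in H and 20.1, 25.3 and 30.5 in C (4.27 ± 0.31, adjusted p = 8.45e-05). Trem2, the lipid receptor that signals through Tyrobp, measured 1.81, 2.07 and 2.82 in H and 14.4, 16.5 and 19.2 in C (2.45 ± 0.24, adjusted p = 0.000366). Both receptors were separated from H in every library. Apoe, the lipid carrier of glia, was abundant already in healthy cord at 543, 615 and 643 FPKM and reached 1920, 2129 and 2398 (1.84 ± 0.24, adjusted p = 0.00151). The list score, the mean log2(FPKM + 1) of the members, was 3.21 to 3.31 in H and 5.18 to 5.597 in C. Between 22 and 26 members were called higher under the alternatives.

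Of 17 homeostatic microglia genes, 9 were called higher, 0 lower and 8 neither (median 0.74). Fcrls, an Fc receptor-like protein of microglia, measured 3.96, 4.18 and 4.91 FPKM in H and 32.8, 47.0 and 41.5 in C (2.94 ± 0.25, adjusted p = 0.000196). The secreted protein Olfml3 (1.64 ± 0.22) was called too. The surface markers used most to name resting microglia were not called. P2ry12, the purine receptor that guides their processes, was at 8.68, 8.68 and 12.9 in H and 13.3, 15 and 14.6 in C (0.49 ± 0.19, adjusted p = 0.125), and Tmem119 differed by 0.55 ± 0.16 (adjusted p = 0.0527). All C values of both markers lay above H, by a margin that did not pass. In bulk tissue, more cells of a type and more RNA per cell cannot be told apart. Markers of border and blood macrophages were low, with 1 of 12 tested called, the carbonyl reductase Cbr2 (0.74), where 7.25% of all genes were called higher. Without C84, C85 or H2 that call was lost, while voom called 4 of them and gave a median of 1.43 against 0.44 here. Their score ran from 0.44 to 0.65 in H and from 0.89 to 1.11 in C, with Folr2 and Cd209f too low to test. What such cells contributed to the microglial lists was not tested.

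Complement, the tagging system that marks synapses and debris for uptake, had a median of 2.35 with 12 of 17 genes called higher and 0 lower. C4b, a component of the classical pathway (ENSMUSG00000073418, chr17:34728380-34743882), stood at 19.1, 17.6 and 16.1 FPKM in H and 130, 143 and 141 in C (2.91 ± 0.18, adjusted p = 3.89e-05). C1qa, a chain of the initiator C1q, measured 32.4, 33.7 and 43.7 in H and 198, 249 and 258 in C (2.65 ± 0.30, adjusted p = 0.000726). C3, on which the pathways converge, stood at 13.6, 12.6 and 13.6 in H and at 67.7, 130 and 78.8 in C (2.65 ± 0.31, adjusted p = 0.000918). C84 was the highest library for C3, and all C libraries were above H for the 3 genes. The receptor C3ar1 rose as well (2.37 ± 0.24, adjusted p = 0.000422). C4b has a near-identical relative, so its reads may be shared.

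Fc gamma receptors, which bind antibody-coated targets, had 5 of 6 members called higher and a median of 1.91. The common chain Fcer1g stood at 4.30, 6.93 and 8.07 FPKM in H and 36.9, 31.5 and 48.8 in C (2.44 ± 0.29, adjusted p = 0.00101), and Fcgr3 differed by 2.19 ± 0.24. The remaining 3 were the inhibitory receptor Fcgr2b (2.34), the high-affinity receptor Fcgr1 (1.62) and the neonatal receptor Fcgrt (0.84). Among chemokines, the attractants of leukocytes, 7 of 14 were called higher (median 1.33, and 2.80 with voom, which gave complement 2.62). Ccl3 was at 0.467, 0.641 and 0.680 in H and 12.8, 15 and 17.4 in C, and Ccl4 at 0.181, 0.0826 and 0.175 against 4.30, 5.83 and 7.99. C85 was the highest and C79 the lowest C library for both. Ccl6 rose by 2.82 ± 0.24.

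Of 14 genes of Toll-like receptors and their signalling, 8 were called higher (median 0.61), with Cd14, the co-receptor for bacterial lipids (2.13 ± 0.20), Tlr2 (1.72 ± 0.21) and Tlr1 (1.25). Of 19 cytokine and NF-kB feedback genes 10 were called higher (median 0.60). The feedback regulators Socs3 (1.84), Bcl3 (1.46) and Nfkbiz (0.65) were among them. Without C85 the counts were 4 and 6, and without C84 or H2 they were 5 and 6. The NADPH oxidase of phagocytes, which makes superoxide, had 7 of 10 genes called higher and a median of 1.22. Its membrane subunit Cyba stood at 3.10, 5.09 and 3.51 FPKM in H and 23.5, 25.6 and 30.6 in C (2.51 ± 0.30, adjusted p = 0.000986). The catalytic subunit Cybb, low in H at 0.246, 0.131 and 0.189, reached 2.81, 4.83 and 4.74 (2.08 ± 0.30, adjusted p = 0.00214). Vav1, which activates the Rac switch of the complex, rose by 1.35 ± 0.17. Every C library exceeded every H library for these subunits.

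Lysosomal genes had 18 of 30 members called higher and 0 lower, with a median of 0.67, and hydrolases and membrane proteins were both among them. Ctsz, a cathepsin protease, measured 28.4, 25.9 and 30.1 FPKM in H and 114, 145 and 146 in C (2.22 ± 0.26, adjusted p = 0.000897). Ctsd (ENSMUSG00000007891, chr7:142375911-142388038) stood at 56.9, 55.0 and 55.0 in H and 203, 248 and 267 in C (2.08 ± 0.24, adjusted p = 0.000941). Grn, a growth factor-like regulator of lysosomes, differed by 2.05 ± 0.24 (adjusted p = 0.000941). The H libraries differed from each other by far less than any of them did from C. Ctsa was called (1.03 ± 0.18, adjusted p = 0.00586), while the membrane protein Lamp1 at 153, 161 and 155 against 199, 205 and 211 was not (0.39 ± 0.12, adjusted p = 0.0684). Autophagy genes, which deliver cargo to lysosomes, had 0 of 19 called by limma, 3 at an unadjusted p under 0.05 (1 higher, 2 lower) and 2 by voom. Their median was 0.02, which was -0.07 with median-ratio scaling. The autophagy score lay between 4.28 and 4.34 in all 6 libraries.

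Many lysosomal promoters carry the E-box CACGTG, the core of the element read by the regulator TFEB, so the promoters of the list were searched for it. The motif reads the same on both strands and was looked for in the 250 bases before each RefSeq start site on GRCm38.p6. Of 27025 genes with a promoter sequence 6.86% held it. Of the 23 lysosomal genes matched by symbol 7 held it (30.4%), but of the 13 called ones only Ctsd and Ctsa did (15.4%). The following 30-base windows show it in the 2 called genes and in Lamp1, which was not called, each 5′ to 3′ on the strand of the gene with the E-box in capitals.
Ctsd, chr7:142387908-142387937, minus strand: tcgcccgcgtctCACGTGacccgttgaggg
Ctsa, chr2:164833743-164833772, plus strand: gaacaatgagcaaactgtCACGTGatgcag
Lamp1, chr8:13159104-13159133, plus strand: tggtccagcgccCACGTGatgccgactggc
The motif begins 98, 12 and 45 bases before the RefSeq start site, in that order. The Ctsd window lies in the first exon of GENCODE M21, whose start is further upstream, the Ctsa window overlaps first exons of some transcripts, and the Lamp1 window lies before the gene. Ctsd held a second copy and Lamp1 several. These matches are letters in a window and describe neither binding nor a cause of the differences.

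Antigen presentation rose in both classes. Of 17 MHC class I and immunoproteasome genes 11 were called higher (median 0.81). B2m, the shared light chain, measured 80.5, 101 and 114 FPKM in H and 345, 316 and 499 in C (1.95 ± 0.30, adjusted p = 0.00342). The heavy chains H2-K1 (1.61 ± 0.30) and H2-D1 (1.33) were called too. Of 9 MHC class II genes 6 were called higher (median 1.43). The invariant chain Cd74 stood at 2.37, 0.928 and 1.48 in H and at 9.80, 27.3 and 13.5 in C (2.70 ± 0.39, adjusted p = 0.00267), with C84 well above its group. The peptide loader H2-DMb1 rose by 1.43 ± 0.19, whereas Ciita, the class II activator, overlapped between the groups at 0.374, 0.467 and 0.341 against 0.424, 0.547 and 0.184 (-0.02 ± 0.11, adjusted p = 0.938). H2 genes are near-identical copies, and the split of reads among them is uncertain. Without C85 or H2 the class I count was 3, without C84 5 and without H1 6, and without H2 the class II count was 3.

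Of 30 interferon response genes 6 were called higher and the median was 0.66. Irf8, a transcription factor of microglia as well as of interferon signalling, stood at 0.819, 0.889 and 0.820 FPKM in H and 5.04, 6.58 and 6.13 in C (1.90 ± 0.23, adjusted p = 0.000963). Ifitm3 (2.02 ± 0.31) and Bst2 (1.85 ± 0.39), proteins that block viral entry and release, were called as well, as were the guanylate-binding protein Gbp2 (1.95), Ifi27l2a (1.84) and the transcription factor Irf1 (0.62). The typical interferon-induced gene Isg15 was at 2.44, 2.02 and 3.37 in H and 6.34, 3.80 and 11.1 in C, which did not pass (1.08 ± 0.53, adjusted p = 0.228). C85 had the highest list score, 2.62, against 1.94 and 2.06 in C79 and C84 and 1.31 to 1.38 in H. Without C85 2 members were called, and without C84 or H2 3.

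Reactive astrocyte genes had 21 of 26 members called higher, 0 lower and a median of 1.39. Serpina3n, a secreted protease inhibitor (ENSMUSG00000021091, chr12:104406729-104414329), stood at 31.2, 27.2 and 21 FPKM in H and 257, 364 and 360 in C (3.58 ± 0.35, adjusted p = 0.000366). The intermediate filament Vim, which microglia and vessels also express, went from 16.6, 11.4 and 12.1 to 103, 164 and 132 (3.21 ± 0.34, adjusted p = 0.000591). Gfap, the filament that defines reactive astrocytes, was at 398, 332 and 485 in H and 1409, 1814 and 1676 in C (2.02 ± 0.25, adjusted p = 0.00112). C79 was the lowest C library for all 3, and still above each H library. The surface protein Cd109 rose by 2.14 ± 0.21. The count was 12 without C84 or C85 and 13 without H2. Serpina3n belongs to a family of near-identical genes.

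Genes of astrocyte identity moved in mixed directions, with 4 of 18 called higher and 1 lower. The water channel Aqp4 had a mean of 85.6 ± 3.84 FPKM (SD, n = 3) in H and stood at 186, 198 and 206 in C, far above it (1.19 ± 0.17, adjusted p = 0.00232). The transcription factor Sox9 (0.93 ± 0.18), the gap junction protein Gja1 (0.50 ± 0.09) and the neurotensin receptor Ntsr2 (0.29) were also higher, and the proteoglycan Gpc5 was lower at 8.28, 9.03 and 7.99 in H against 6.49, 6.20 and 5.52 in C (-0.42 ± 0.10, adjusted p = 0.0262). The Gpc5 call was lost without H1, H2, C84 or C85. The glutamate transporter Slc1a2 overlapped between groups (-0.11, 95% interval -0.31 to 0.09). The median of the list was 0.07 and turned to -0.03 with median-ratio scaling.

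Among calcium-binding S100 proteins and annexins 4 of 16 were called higher (median 0.69). S100a6 stood at 4.18, 4.95 and 7.02 FPKM in H and 34.4, 28.8 and 49.5 in C (2.58 ± 0.39, adjusted p = 0.00358). Anxa3 (1.92 ± 0.26), S100a11 (2.12 ± 0.35) and S100a10 (1.02) were the remaining ones. Of 19 genes of apolipoproteins and lipid handling, 7 were called higher and 1 lower. They included the cholesterol exporter Abca1, at 4.56, 4.30 and 4.49 in H and 11.6, 12.3 and 14.6 in C (1.34 ± 0.18, adjusted p = 0.0018), and the chaperone-like apolipoprotein Clu (1.2 ± 0.18).

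**Figure D3:**
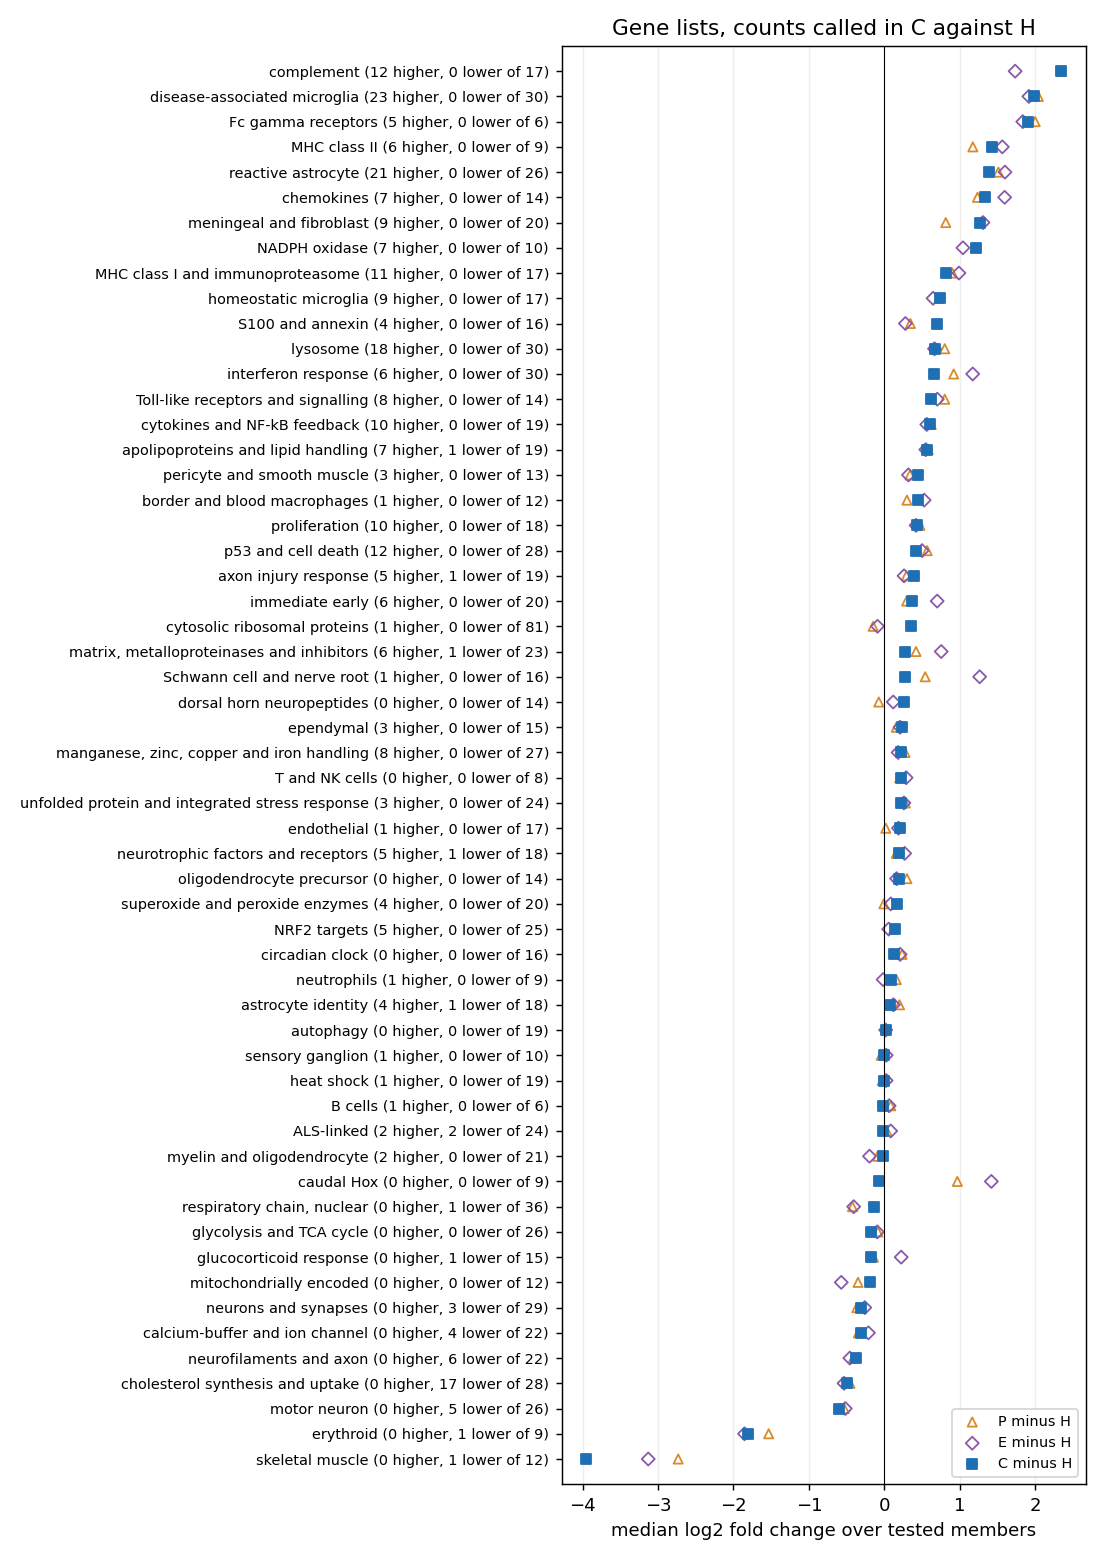
Each row is a gene list with at least 4 tested members, with the number called in C against H in its label. Filled squares are the median log2 difference C minus H, and open symbols the medians of P minus H and E minus H, which use the same H libraries. Microglial, complement and reactive astrocyte lists lie to the right of 0 (complement at 2.35), and the motor neuron and cholesterol lists to the left (-0.60 and -0.49).

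Cholesterol synthesis was the list with the most lower calls. Of 28 genes of cholesterol synthesis and uptake 17 were called lower and 0 higher (median -0.49), where 1.06% of all genes were lower. Stard4, a cytosolic sterol carrier, stood at 8.43, 9.68 and 7.88 FPKM in H and 4.35, 5.23 and 4.25 in C (-0.78 ± 0.10, adjusted p = 0.00151). Sc5d, a late enzyme of the pathway, measured 31.7, 32.9 and 32.9 in H and 23.1, 22.3 and 21.6 in C (-0.52 ± 0.09, adjusted p = 0.00488). Fdft1, which makes squalene, went from 24.6, 26.4 and 25.7 to 17.6, 17.2 and 17.1 (-0.54 ± 0.10, adjusted p = 0.00754). In these 3 genes the libraries of a group lay close together and the groups were apart. The list score was 4.05 to 4.14 in H and 3.57 to 3.74 in C. Without C85 8 members were called and without H2 9.

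Motor neuron genes were lower in C on average, and most of them did not pass the threshold. Over all genes 1.06% were called lower. Of 26 tested 5 were called lower and 0 higher, 23 had a negative difference, and the median was -0.60. Chodl, known from motor neurons of fast units (ENSMUSG00000022860, chr16:78930948-78951733), fell from 18.1, 14.8 and 7.19 FPKM in H to 1.17, 2.88 and 2.37 in C (-2.15 ± 0.28, adjusted p = 0.00141). Mmp9, a protease that marks the same vulnerable motor neurons, was at 5.02, 4.44 and 2.76 in H and 2.19, 1.84 and 1.89 in C (-0.75 ± 0.15, adjusted p = 0.0135). The transcription factors Lhx4 (-0.78 ± 0.17) and Isl2 (-0.72 ± 0.19), which specify motor neurons, and the peptide receptor Vipr2 (-0.60 ± 0.12) completed the 5. Cholinergic genes were lower on average and did not pass, with Chat, the acetylcholine-making enzyme, at 16.6, 11.3 and 6.03 in H and 3.41, 6.52 and 3.98 in C (-1.07 ± 0.35, adjusted p = 0.0875). Slc18a3, the vesicular transporter that sits within the Chat locus, gave -1.22 ± 0.35 (adjusted p = 0.0552). H4 was the lowest H library for each of these, and overlapped with C84 for Chat.

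The number of motor neuron genes called differed with the library left out and with a covariate for caudal Hox expression. The score was 3.28, 3.14 and 2.60 in H and 2.31, 2.59 and 2.47 in C. Caudal Hox genes, which mark the rostrocaudal level, had scores of 1.67, 1.31 and 0.32 in H and 1.34, 0.54 and 1.26 in C, so H4 and C84 stood apart from their groups. Without H4 18 motor neuron genes were called lower, and with the caudal Hox score as a covariate 16, while without C85 or H2 there was 1 and without C79, C84 or H1 3. The Chodl call held under every alternative. Over all genes the lower calls also went from 192 to 408 with that covariate. Skeletal muscle genes had scores of 7.67, 4.26 and 2.01 in H1, H2 and H4 and 0.79 to 0.90 in C, so their order within H was that of the motor neuron score. The part of muscle RNA and of the cord level in these differences was not tested.

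Among called genes without overlap between the groups, several of the largest falls were of channels and transporters. Kcnj14, an inward-rectifier potassium channel, stood at 14.2, 12.6 and 6.98 FPKM in H and 2.50, 4.11 and 3.29 in C (-1.48 ± 0.26, adjusted p = 0.00591) and held its call throughout. Slc10a4, a vesicular protein of cholinergic neurons, was at 21.6, 15.4 and 9.28 against 4.44, 6.31 and 5.77 (-1.27 ± 0.33, adjusted p = 0.0381). Kcng4, a modifying potassium channel subunit, measured 38.3, 33.6 and 16.6 in H and 11.1, 14.4 and 11.4 in C (-1.12 ± 0.28, adjusted p = 0.0305). H4 was again the lowest of H in each. The last 2 calls were lost without H1, H2, C79, C84 or C85.

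Neurofilament and axonal genes had 6 of 22 called lower, where 1.06% of all genes were, and a median of -0.37. Nefl, the light neurofilament, stood at 470, 529 and 385 FPKM in H and 304, 238 and 280 in C (-0.75 ± 0.17, adjusted p = 0.0231). Nefm, the medium chain, was at 580, 595 and 320 against 254, 241 and 242 (-0.96 ± 0.27, adjusted p = 0.0496). The gene models of Nefl and Nefm overlap on opposite strands and the strand setting of the counting is not given, so their reads cannot be told apart there. The axonal motors Kif5a (-0.65 ± 0.14) and Kif5c (-0.65 ± 0.15), the microtubule regulator Stmn2 (-0.55 ± 0.13) and the microtubule protein Map1b (-0.72 ± 0.19) were the remaining calls, while the heavy chain Nefh missed the threshold (-1.03 ± 0.31, adjusted p = 0.0629). Without C85, H1 or H2 the count was 0, without C79 or C84 1, and without H4 11.

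General neuronal and synaptic genes had 3 of 29 called lower (median -0.31), where 1.06% of all genes were. These were the RNA-binding protein Elavl2 (-0.44 ± 0.10) and the synaptic vesicle proteins Sv2b (-0.88 ± 0.23) and Vamp1 (-0.68 ± 0.18). Of 22 calcium-buffer and ion channel genes 4 were lower (median -0.31), Kcnj14, the sodium channel Scn1a (-0.63 ± 0.16), the potassium channel Kcna2 (-0.68 ± 0.17) and Pvalb. Without any 1 of C79, C84, C85, H1 or H2 the counts were 0 and 1. Rbfox3, carried by nearly all neurons, was at 21.4, 23.1 and 22.9 FPKM in H and 17.7, 21 and 17.4 in C, which did not pass (-0.26 ± 0.16, adjusted p = 0.321). Of 14 dorsal horn neuropeptides 0 were called by limma, 0 were at an unadjusted p under 0.05 and 0 were called by voom, with a median of 0.26. Without H4 3 of them were called higher.

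Of 19 axon injury genes 5 were called higher, 1 lower and 13 neither. Sprr1a, a small proline-rich protein induced in injured neurons (ENSMUSG00000050359, chr3:92483952-92485895), stood at 0.444, 0.135 and 0.646 FPKM in H and 5.11, 7.40 and 5.99 in C (2.35 ± 0.17, adjusted p = 8.45e-05). Atf3, the stress transcription factor of injured motor neurons, measured 3.21, 0.582 and 0.510 in H and 7.29, 8.21 and 10.6 in C (2.15 ± 0.33, adjusted p = 0.00311), with H1 apart from H2 and H4. Csf1, the growth factor through which injured neurons call microglia, rose by 1.0 ± 0.19, Hspb1 by 1.89 ± 0.39 and Gadd45a by 0.68, while the receptor Lifr was lower (-0.39). Without C85 3 were higher. The growth-associated protein Gap43 overlapped between the groups (0.39 ± 0.16, adjusted p = 0.156).

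Of 20 enzymes that handle superoxide and peroxide 4 were called higher, where 7.25% of all genes were, and 0 lower, with a median of 0.17 against 0.07 over all genes. Sod1, the cytosolic copper-zinc dismutase (ENSMUSG00000022982, chr16:90220754-90226329), stood at 149, 219 and 244 FPKM in H and 238, 146 and 273 in C. The groups overlapped, with a difference of 0.08 ± 0.23 and a 95% interval from -0.41 to 0.57 (adjusted p = 0.853). C84 and H1, the low libraries for Sod1, gave 36.2 and 38.3% of FPKM to short genes, against 41.9 to 44.3% in C79, C85 and H4. H2, with Sod1 at 219 FPKM, gave 38.9%, close to H1. What this share had to do with Sod1 was not tested. Sod2, the mitochondrial manganese enzyme, was at 39.4, 39.1 and 32.8 in H and 28.0, 27.1 and 28.0 in C. Each C value was below each H value, but the difference did not pass (-0.40 ± 0.12, adjusted p = 0.0614). It passed in 5 alternatives, among them leaving out H4, median-ratio scaling and a fit of the 2 groups alone. Sod3, the extracellular dismutase, gave 0.48 ± 0.20 (adjusted p = 0.152), the copper chaperone Ccs 0.24 ± 0.19 and catalase, Cat, 0.08 ± 0.11.

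The 4 enzymes that rose all remove peroxides. Prdx6, a peroxiredoxin of astrocytes, stood at 51.4, 55.8 and 59.4 FPKM in H and 132, 136 and 161 in C (1.34 ± 0.19, adjusted p = 0.0023). Gpx8, a peroxidase of the endoplasmic reticulum, was at 3.80, 2.57 and 2.78 against 8.70, 11.1 and 10.5 (1.46 ± 0.26, adjusted p = 0.00631). Gpx1, the cytosolic glutathione peroxidase, measured 37.5, 37.1 and 44.5 in H and 66.2, 62.9 and 76.2 in C (0.77 ± 0.14, adjusted p = 0.00771). These 3 held their call under every alternative, and the groups did not overlap. Gpx7 (0.69 ± 0.17, adjusted p = 0.027) lost its call whenever any 1 of the 6 libraries was left out. The peroxiredoxins Prdx1 (0.38), Prdx2 (0.12), Prdx3 (-0.13), Prdx4 (0.35) and Prdx5 (-0.04), and Gpx3 (0.21) and Gpx4 (0.13), did not pass, nor did the thioredoxins and their reductases.

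**Figure D4:**
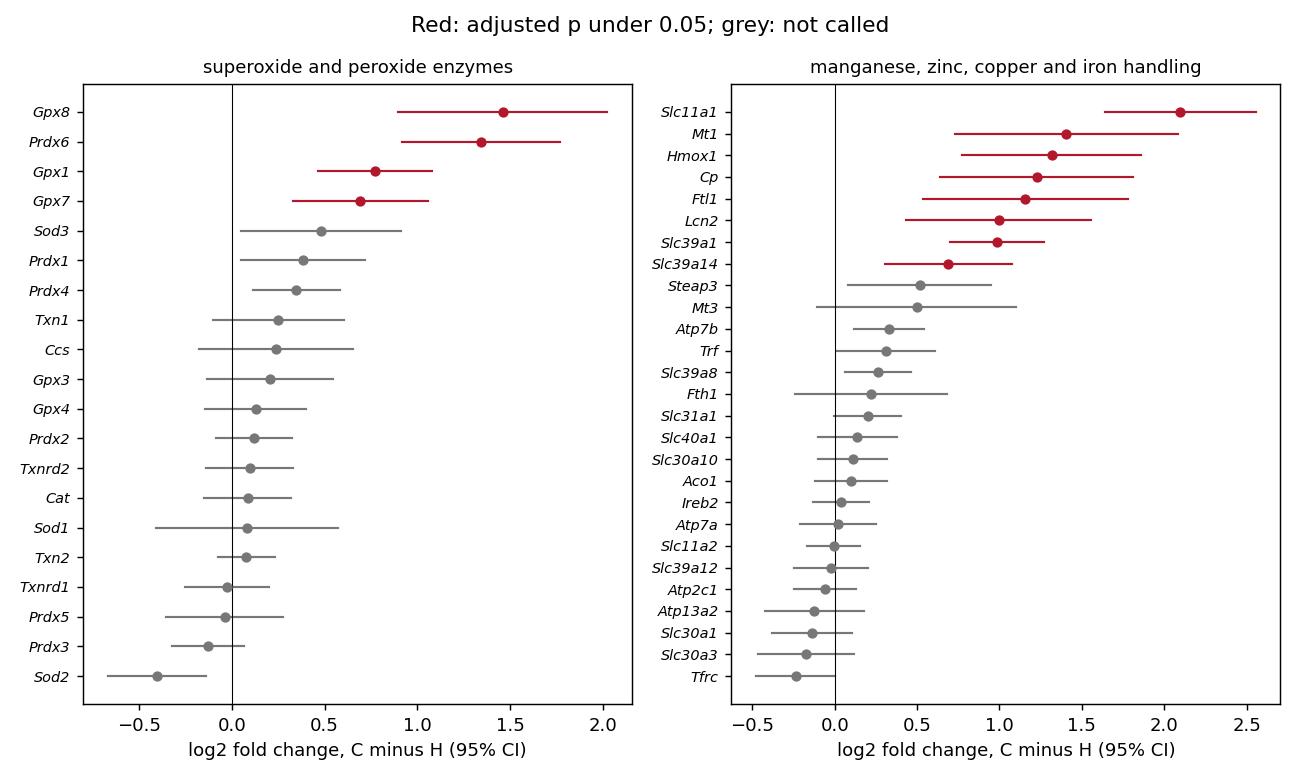
Points are log2 differences C minus H and bars their 95% intervals, for superoxide and peroxide enzymes (left) and genes of manganese, zinc, copper and iron handling (right), with called genes in red. Sod1 lies at 0.08 with a wide interval, Sod2 is the lowest enzyme at -0.40, and Slc11a1 the highest metal gene at 2.10.

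NRF2, encoded by Nfe2l2, is the transcription factor that turns on antioxidant genes. Nfe2l2 itself rose from 10.2, 9.17 and 8.35 FPKM in H to 16.0, 19.3 and 17.7 in C (0.87 ± 0.14, adjusted p = 0.00367). Of 25 genes of this list, which holds Nfe2l2 and known targets, 5 were called higher and 0 lower, with a median of 0.14. The others were the heme oxygenase Hmox1, at 3.78, 3.86 and 3.04 in H and 9.32, 10.4 and 11.3 in C (1.32 ± 0.25, adjusted p = 0.00887), the cystine importer Slc7a11 (0.66 ± 0.13), the ferritin light chain Ftl1 (1.16 ± 0.28) and Pgd of the pentose phosphate pathway (0.44). Nqo1, often used to read the pathway, did not pass (0.37 ± 0.12, adjusted p = 0.0914). Without C84, C85, H1 or H2 the count was 3.

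The carbon dots carry manganese, and 27 genes of manganese, zinc, copper and iron handling were tested, with 8 called higher and 0 lower (median 0.22). The count was 3 without C85 or H2, 4 without C84 and 5 without C79 or H1. Slc11a1, a divalent metal pump of phagosomes, stood at 0.869, 0.766 and 0.968 FPKM in H and 5.97, 7.77 and 7.34 in C (2.10 ± 0.21, adjusted p = 0.000397). The zinc importer Slc39a1 was at 12.5, 12 and 12 against 23.9, 24.8 and 26.6 (0.98 ± 0.13, adjusted p = 0.00153). Both separated the groups in every library. Among known manganese transporters, the importer Slc39a14 was at 5.0, 3.84 and 3.87 in H and 6.19, 8.41 and 7.74 in C (0.69 ± 0.18, adjusted p = 0.0336). Its call was lost with median-ratio scaling and without C84, C85, H2 or H4. The importer Slc39a8 (0.26 ± 0.09, adjusted p = 0.0989) and the exporter Slc30a10 (0.11 ± 0.10, adjusted p = 0.508) did not pass, and the importer Slc11a2 gave -0.01 with a 95% interval from -0.17 to 0.15.

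The metal-binding metallothionein Mt1 was at 131, 171 and 262 FPKM in H and 537, 313 and 655 in C (1.41 ± 0.31, adjusted p = 0.018), with C84 the lowest of C. The copper oxidase Cp, at 1.89, 1.80 and 1.54 in H and 3.63, 7.95 and 5.33 in C, had C84 as its highest library (1.23 ± 0.27, adjusted p = 0.0177). Lcn2, an iron-siderophore carrier, stood at 1.02, 0.395 and 0.794 in H and 2.31, 2.05 and 2.97 in C (0.99 ± 0.26). The heavy ferritin Fth1, the iron exporter Slc40a1 (0.14) and the transferrin receptor Tfrc (-0.24) were not called, and Fth1 ranged from 5790 in H1 to 10676 in H4 (0.22 ± 0.21). The calls of Mt1, Cp, Ftl1 and Lcn2 were each lost without C85 or H2 and without further libraries. Ftl1 and the metallothioneins have close copies, so their reads may be shared.

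Cell death and proliferation lists were both higher. Of 28 genes of p53 and cell death 12 were called higher and 0 lower (median 0.42), led by the tumor necrosis factor receptor Tnfrsf1a, at 6.51, 5.26 and 4.84 FPKM in H and 15.5, 20.1 and 18.1 in C (1.53 ± 0.23, adjusted p = 0.00273). Casp1, the caspase of the inflammasome (1.0 ± 0.16), and the death receptor Fas (1.03 ± 0.18) followed. Of 18 proliferation genes 10 were higher (median 0.43), with the cyclin Ccnd1 (1.15 ± 0.20) and Top2a, a topoisomerase of dividing cells, at 0.298, 0.157 and 0.167 in H and 1.07, 1.44 and 1.17 in C (0.88 ± 0.16, adjusted p = 0.00825). The mitotic kinase Cdk1 remained low at 0.485 to 0.682 in C (0.47 ± 0.10). Without C84 or C85 4 cell death genes were called and without H2 5, and the proliferation count was 2 without H2, 3 without C85 and 5 without C84.

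Immediate early genes had 6 of 20 called higher, with Junb (1.09 ± 0.15), Atf3 and Fos (1.08 ± 0.17), and 3 without C84 or H2. Fos was at 6.26, 5.80 and 4.99 FPKM in H and 13.2, 12.1 and 14.0 in C. Of 24 genes of the unfolded protein and integrated stress response, Ddit3 (0.58 ± 0.10), Trib3 (0.79) and Atf5 (0.65) were called, while without H2 6 were and without C85 1. Of 19 heat shock genes 1 was called higher, where 7.25% of all genes were. It was the small chaperone Hspb1, at 46.5, 32.1 and 19.7 in H and 103, 116 and 135 in C (1.89 ± 0.39, adjusted p = 0.0133), a call lost without C84 or C85. Of 26 glycolysis and tricarboxylic acid cycle genes 0 were called by limma, 5 were at an unadjusted p under 0.05 (2 higher, 3 lower) and 1 was called by voom. Of 16 clock genes 0 were called by limma, 5 were at an unadjusted p under 0.05, all higher, and 1 was called by voom. Among 15 glucocorticoid-responsive genes Zbtb16 was lower (-0.96 ± 0.24). Trib3, Atf5 and Zbtb16 lost their calls without C85 or H2.

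Of 24 ALS-linked genes, 2 were called higher and 2 lower, where 7.25% of all genes were higher and 1.06% lower. The higher count was near the share over all genes. The higher ones were the ribonuclease Ang (1.09 ± 0.18, adjusted p = 0.0047) and the actin regulator Pfn1 (0.51), and the lower ones Kif5a and Stmn2. The lower count was 0 without C79, C85, H1 or H2, and the higher count was 1 without any 1 of the libraries except H4. The median was -0.02. Growth factors and receptors for neurons had 5 of 18 higher and 1 lower, and 3 higher without C84, C85, H1, H2 or H4. Igf1 was at 0.451, 0.606 and 0.619 FPKM in H and 2.21, 3.67 and 3.77 in C (1.41 ± 0.25, adjusted p = 0.00591), and Fgf2 rose by 1.19 ± 0.23. Igf2 (2.13), the receptor Met (0.77) and Hgf (0.29) were the remaining higher members, and Fgf1 of motor and sensory neurons was lower (-0.65 ± 0.15).

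Myelin genes had 2 of 21 called higher, the tight junction protein Cldn11 (0.60 ± 0.12) and Opalin (0.65 ± 0.18), both lost without C85 or H2. Over all genes 7.25% were called higher, and the myelin count and the endothelial count given below were near that share. Mbp overlapped between the groups at 2160, 1784 and 2539 FPKM in H and 1997, 2016 and 1846 in C (-0.13, 95% interval -0.46 to 0.19). Of 14 oligodendrocyte precursor genes 0 were called by limma, 4 were higher at an unadjusted p under 0.05 and 1 was called by voom. Endothelial genes had 1 of 17 called, Vwf (0.68), ependymal genes 3 of 15, Nnat (1.08 ± 0.13), Cfap126 (0.73) and Sox2 (0.87), and pericyte and smooth muscle genes 3 of 13, Vtn (1.22 ± 0.27), Acta2 (1.14) and Kcnj8 (0.52). The vascular calls were all lost without C84 or H2.

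Meningeal and fibroblast genes had 9 of 20 called higher and all 20 positive (median 1.27). Fmod, a proteoglycan of the meninges, was at 3.79, 2.10 and 1.59 FPKM in H and 21.9, 54.8 and 31.4 in C (3.36 ± 0.51, adjusted p = 0.00395). Thbs2 rose by 1.65 ± 0.24 and fibronectin, Fn1, by 1.71 ± 0.32, at 10.5, 25.8 and 14.4 in C. C84 was the highest library for these genes and for the list score, 3.58 against 2.69 in C79 and 3.12 in C85, and 1.64 to 2.20 in H. The count was between 3 and 5 whenever any 1 of the 6 libraries was left out. Of 23 genes of matrix, metalloproteinases and inhibitors 6 were higher and Mmp9 lower. Timp1, an inhibitor of metalloproteinases, stood at 1.21, 1.17 and 0.847 in H and 11.6, 9.65 and 15.9 in C (2.67 ± 0.35, adjusted p = 0.00152). Mmp12, the macrophage elastase, was listed at 0.0329 in H1 and at 0 in H2 and H4, and at 1.55, 2.20 and 2.15 in C (adjusted p = 0.00151).

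Lists of white blood cell markers had 0 or 1 gene called higher, where 7.25% of all genes were called higher and 1.06% lower. With 6 to 9 members tested, these higher counts were near that share. Of 8 tested T and NK cell genes 0 were called by limma, 5 were at an unadjusted p under 0.05 (4 higher, 1 lower) and 2 were called by voom. Cd3e, Cd3d and 7 further members were too low to test. Cd22, known from B cells and also from microglia, was the 1 of 6 B cell genes called (1.02 ± 0.23), at 0.994 to 1.47 FPKM in C, a call lost without C84, C85 or H2. Csf3r, a receptor of neutrophils and microglia, was the 1 of 9 neutrophil genes called, at 3.52, 2.28 and 3.06 in H and 11.9, 17.2 and 13.1 in C (1.93 ± 0.22, adjusted p = 0.00081). Ly6g, Elane and Cxcr2 of neutrophils were too low to test. Erythroid genes were lower on average (median -1.81, 1 of 9 called), with Alas2, the heme-making enzyme of red cells, at 16.0, 3.43 and 19.2 in H and 2.64, 2.53 and 1.77 in C (-1.81 ± 0.49, adjusted p = 0.0472). That call was lost in 9 of 13 alternatives, and the hemoglobin gene Hba-a1 was at 482, 162 and 1014 in H against 157, 81 and 103 in C. Without H2 6 erythroid genes were called lower.

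Skeletal muscle genes were high in healthy libraries, to very different extents. Acta1, the actin of muscle fibres, stood at 796, 46.9 and 6.25 FPKM in H and at 0.218, 0.883 and 0.377 in C (-5.47 ± 1.57, adjusted p = 0.0608). The score of the 12 tested members was 7.67, 4.26 and 2.01 in H and 0.79 to 0.90 in C, and 1 was called, Pvalb. High scores were not confined to H, as P74 stood at 3.63 and E90 at 2.55, above H4. The remaining P and E libraries had muscle scores of 0.77 to 1.36. Without H4 all 12 were called lower. Pvalb, a calcium buffer of fast muscle and of interneurons, was at 217, 132 and 95.6 in H and 80.3, 55.5 and 73.2 in C (-1.01 ± 0.27, adjusted p = 0.0404). A few further genes among the largest falls are known from muscle, and their H values had the same order as the muscle score. The methyltransferase Smyd1 was highest in H1, at 5.14 in H2 and 2.62 in H4, and stood at 1.07 to 1.47 in C (-1.45 ± 0.33, adjusted p = 0.0208). Sh3bgr was at 37.0, 26.8 and 19.1 in H and 11 to 13.8 in C (-1.08 ± 0.24, adjusted p = 0.0177). The mitochondrial carrier Ucp3 was at 11, 4.44 and 4.11 in H and 1.99 to 2.80 in C (-1.03 ± 0.25, adjusted p = 0.0296). The part of muscle RNA in these falls was not tested. The water channel Aqp6 was also among the largest falls (-1.05 ± 0.22, adjusted p = 0.0132) and lost its call without C85. Smyd1, Ucp3 and Pvalb were not called without C84 or C85, and Sh3bgr not without C79, C84, H1 or H2.

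Schwann cell genes, which mark nerve roots left on the cord, varied by library. Their score was 2.86, 2.49 and 2.10 in H and 2.70, 2.79 and 3.24 in C, so the groups overlapped and C85 was highest. Of 16 genes tested 1 was called higher, where 7.25% of all genes were. It was Egr2 (1.19 ± 0.29, adjusted p = 0.0283), which was not called without C84, C85, H2 or H4. Of 10 sensory ganglion genes Avil was called (0.56), and of 9 caudal Hox genes 0 were by limma, 0 at an unadjusted p under 0.05 and 0 by voom.

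**Figure D5:**
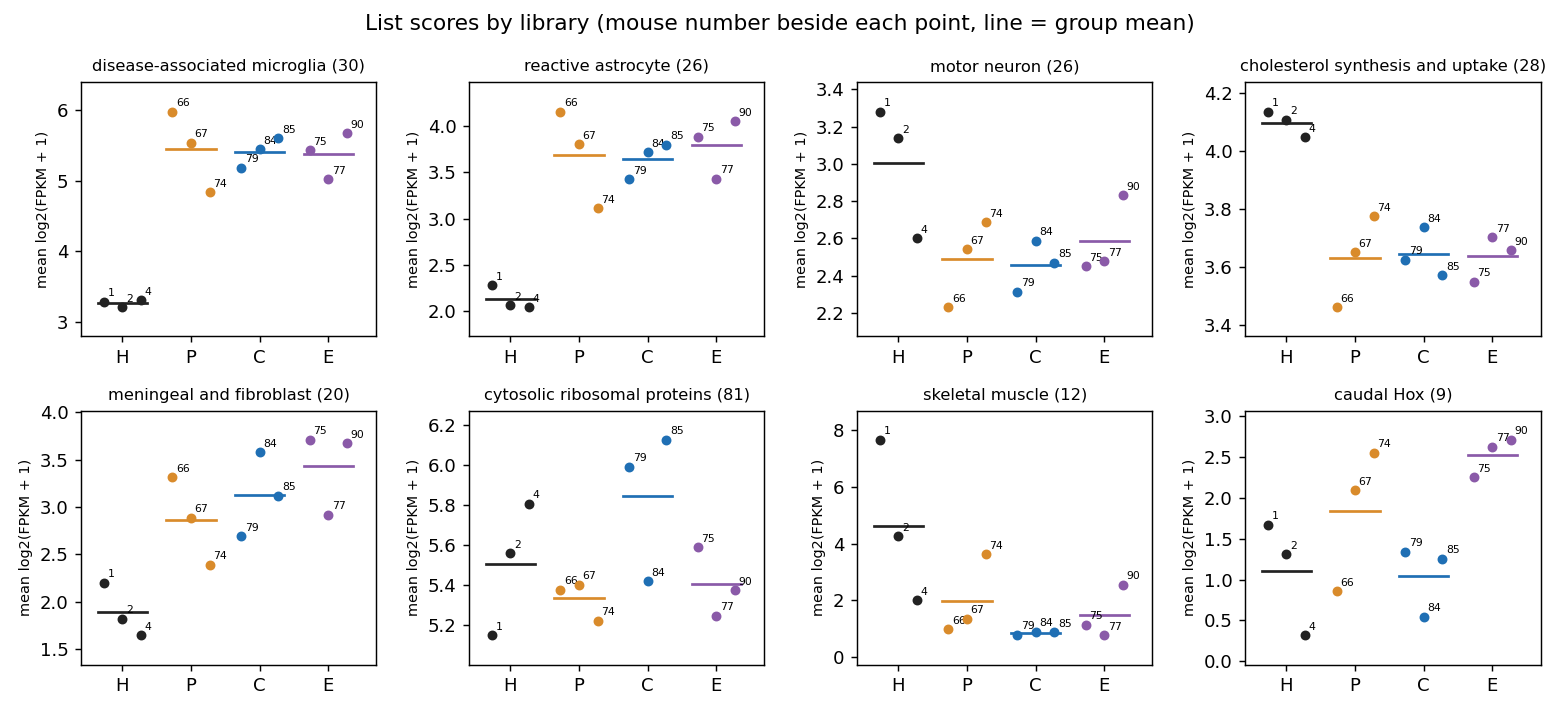
Each point is a library, labelled by mouse number, and its height is the mean log2(FPKM + 1) of the tested members of a list (number in the panel title), with group means as lines. The 3 C libraries lie together for microglia (5.18 to 5.597), while C84 stands apart from C79 and C85 for ribosomal proteins and caudal Hox genes, and H1 for skeletal muscle.

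Ribosomal protein genes had positive differences with hardly any past the threshold. Of 81 cytosolic ribosomal proteins 80 had a positive difference from H and the median was 0.35, while 1 passed, Rplp0, at 129, 117 and 132 FPKM in H and 186, 182 and 199 in C (0.58 ± 0.13, adjusted p = 0.0189). The medians of P minus H and E minus H were -0.15 and -0.09. The score was 5.99 in C79, 5.42 in C84 and 6.12 in C85, against 5.15, 5.56 and 5.81 in H1, H2 and H4, so C84 lay within H. Ribosomal genes are short, and the share of FPKM in short genes was again 41.9 to 44.3% in C79, C85 and H4 and 36.2% in C84. In H1 and H2 it was 38.3 and 38.9%. Its part in the difference was not tested. Without C84 7 were called higher, and without C85 or H2 0. For nuclear respiratory chain genes C84 was again low, with a score of 5.66 against 6.13 and 6.12 in C79 and C85 and 6.0 to 6.20 in H. Among 36 such genes 1 was called lower, Ndufs1 (-0.33 ± 0.09), a call lost without any 1 of C79, C84, C85, H1 or H2, and of 12 mitochondrially encoded genes 0 were called by limma, 1 was lower at an unadjusted p under 0.05 and 0 were called by voom.

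Group P and group E were set against the same H libraries, and their values are given side by side with those of C because they share that reference. For disease-associated microglia the median differences from H were 1.99 in C, 2.04 in P and 1.91 in E. Complement had 2.35, 2.35 and 1.73, reactive astrocytes 1.39, 1.51 and 1.60, and the lysosome 0.67, 0.80 and 0.66. For motor neuron genes they were -0.60, -0.53 and -0.52, and for cholesterol genes -0.49, -0.46 and -0.54. The gap was wider for skeletal muscle at -3.96 against -2.73 and -3.13, ribosomal proteins at 0.35 against -0.15 and -0.09, S100 and annexins at 0.69 against 0.34 and 0.28, interferon response at 0.66 against 0.92 and 1.17, nuclear respiratory genes at -0.14 against -0.42 and -0.41, and caudal Hox genes at -0.08 against 0.97 and 1.42. Schwann cell genes had medians of 0.27, 0.54 and 1.26 in C, P and E. By library, interferon scores overlapped, at 1.94 to 2.62 in C and 1.95 to 2.88 in P. S100 and annexin scores did too, at 4.47 to 4.64 in C and 3.96 to 4.66 in P. C and P also overlapped for nuclear respiratory, caudal Hox and Schwann cell scores. They did not for skeletal muscle or, narrowly, for ribosomal proteins (5.42 in C84 against 5.40 in P67).

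The test of whether C and P differ is C against P in the same fit, and it called 1 of 18118 genes (0.00552%), with 1802 at an unadjusted p under 0.05 where 906 would be reached by chance. That gene was Gm10479, a gene model without a given name, at 0.303 ± 0.278 FPKM (SD, n = 3) in P, 3.39 ± 1.09 in C and 1.97 ± 0.409 in H (C minus P 1.75 ± 0.19, limma adjusted p = 0.0243). Its C against H difference did not pass (0.55 ± 0.19, adjusted p = 0.104), and the C against P call was lost in 9 of 13 alternatives. No member of any list was called. The intervals allow sizeable differences in either direction for single genes. For C minus P the 95% interval ran from -0.85 to 0.66 for Cst7, from -0.57 to 0.52 for Gfap, from -0.60 to 0.61 for Chodl and from -0.30 to 0.23 for Sod2. The P libraries lay further apart for Cst7, at 32.2 ± 14.5 FPKM in P and 28.2 ± 4.12 in C, and for disease-associated microglia, with scores of 4.83 to 5.98 against 5.18 to 5.597.

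The next genes by p in C against P did not pass. BC051226 gave 0.80 ± 0.11 (adjusted p = 0.0718), with means of 1.38 FPKM in P, 3.16 in C and 2.08 in H. The retinol-binding protein receptor Stra6 was at 0.721 in P, 1.53 in C and 0.362 in H, and Tppp3, a tubulin-binding protein, at 82.1, 122 and 131. The pericyte gene Higd1b was at 1.97, 4.12 and 2.71. In the lower direction Gm15821 (-0.61, adjusted p = 0.0718), Gm7890 (-0.73), Gm13618 (-0.80), the receptor Gpr151 (-0.40) and the phosphatase-like Styx (-0.36) led. Of these, Stra6 and BC051226 were called in C against H, the former at 0.90 ± 0.10 (adjusted p = 0.000591) and the latter at 0.44 (adjusted p = 0.0303), a call lost in 8 of 13 alternatives. For Tppp3 the C and H libraries overlapped (-0.11, 95% interval -0.33 to 0.11). Among superoxide and peroxide enzymes the largest C minus P differences were those of Sod1 at 0.49 ± 0.23 (adjusted p = 0.508), the thioredoxin Txn1 at 0.48 and Gpx4 at 0.43, and none passed. Ribosomal proteins had a median C minus P of 0.53, with 78 of 81 members above P. Short genes held 41.9 and 42.0% of FPKM in C79 and C85 and 36.2% in C84, against 36.3 to 39.4% in P. The part of that share in these differences was not tested.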

How the data were processed

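Poly(A) RNA of whole lumbar cord was sequenced, per the labels' protocols. The submitters' processing notes name GRCm38, featureCounts, HISAT2 and cutadapt; their versions and the strand setting of counting were not given in the sources used here. The authors deposited 1 table per group of FPKM values for 33906 identifiers. The unit was settled from the values: multiplied by union exon length (GENCODE M21), 95.2 to 95.7% of low values came out whole, to a tolerance of 0.02, in units fixed for each library. Recovered reads were 106.6 to 108.0% of the scaling total, and the excess was not resolved. They served for the filter, at least 10 reads in at least 3 libraries.

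Limma 3.58.1 in R 4.3.3 was fitted to log2(FPKM + 1) of all 12 libraries with 1 mean per group, 8 residual degrees of freedom, trended robust moderation and Benjamini-Hochberg adjustment over all genes. Tests are two-sided. A permutation test of 3 against 3 cannot go below 0.1. Simulated data for C against H (18139 genes) recovered 79 of 100 genes changed 2-fold and 93 of 100 changed 4-fold, with 10 false calls. These rates describe the simulation alone. Recovery among genes with few reads was not tested, nor were false calls where many genes of a library shift together.

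The comparison, the 57 gene lists and the rule for named genes were chosen with earlier results of these data known. Named were the 12 largest called changes in each direction with a mean of at least 1 FPKM and no overlap between groups (gene models without a given name and pseudogenes left out), up to 3 called members of each list with the smallest adjusted p, all superoxide, peroxide and metal genes, markers that define a tissue, and for C against P the 5 lowest p-values per direction. The remaining members of counts of 5 or fewer, and Trem2, C1qa, C3, Gfap, Isg15, Gbp2, Ifi27l2a, Irf1, Ciita, Ctsa, Lamp1, Gap43, Nqo1 and Nefh, were named after their values were seen. Some genes that the rule takes are not reported here. Alternatives were another filter, no filter, a pseudocount of 0.1, median-ratio scaling, voom on recovered reads, the 2 groups alone, a caudal Hox covariate and leaving out each library.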

Additional observations from a re-analysis of the deposited data

How the results depend on the processing

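Of the C against H values of single named genes under the alternatives, 2113 stayed on their side of the threshold, 228 lost their call and 11 gained it. In C against P, Gm10479 lost its call in 9 of 13 alternatives and BC051226 gained one in 2. No called value changed sign, while some uncalled ones, mostly of C against P, did. The 1505 calls of C against H became 736 (676 higher, 60 lower) with no filter, and between 567 and 1915 when a library was left out (529 to 1343 higher, 37 to 572 lower). Lower calls were 408 with the caudal Hox covariate and 450 with median-ratio scaling. The cause of these changes in the counts was not tested. The 1 call of C against P became 4 with an FPKM filter (2 higher, 2 lower), 2 higher with median-ratio scaling, 5 with no filter (2 higher, 3 lower), and 0 with the caudal Hox covariate, with a pseudocount of 0.1 and with voom. With a library left out it ranged from 0 to 2, higher calls from 0 to 1 and lower calls from 0 to 1. Of the counts of members called per list 1173 were within 1.5 times of the reported one and 283 were not. The 1173 include counts of 0 that stayed at 0, as the lower calls of many lists did, so they overstate how steady the remaining counts were. No paired analysis was possible because the groups share no replicate numbers.

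With 3 mice per group the median standard error of a difference was 0.12 and its median 95% interval reached 0.25 to either side, narrower for some genes and far wider for others such as Acta1. The unit was settled from the values, and the strand setting and the handling of reads shared by near-identical genes were not given in the sources used here. Libraries C84, C85, H1 and H2 each moved the number of calls by over 1.5 times (754, 599, 891 and 567 without them), and H4 moved the lower calls to 572. H libraries held muscle and erythroid RNA in unequal amounts, and the caudal Hox score differed between libraries. P74 and E90 also had muscle scores above that of H4.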
